A study of Mus musculus with 14 samples.

Results

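The nuclear factor I (NFI) genes Nfia, Nfib, Nfic and Nfix were examined in the list of genomic regions marked by acetylated lysine 27 of histone H3 (H3K27ac) in mouse retina at embryonic day 14 (E14). All 4 members were taken by name. Peaks were counted when they overlapped a member's gene body extended by 50 kb on either side, on the mm9 assembly with GENCODE vM1 gene models. By this rule 14 of the 13463 peaks of the list belonged to the family. The study asked how the homeodomain factor LHX2 shapes accessible chromatin in early and late retinal progenitor cells, and the E14 H3K27ac profile is 1 of the 14 samples of the series used here. The E14 retinas were from the CD1 strain, and the labels give no engineered allele or agent for this sample. The labels name retinal progenitor cells as the material, whereas the methods describe immunoprecipitation from whole dissected retinas, so the peaks cannot be assigned to progenitors alone. In such a pool, fewer marked cells and less acetylation per cell cannot be told apart.

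NFI proteins are DNA-binding transcription factors that bind as dimers to the palindrome TTGGC-N5-GCCAA, and less tightly to a single TTGGCA-like site. The family has 4 paralogous genes in mammals. In the developing brain and spinal cord NFIA, NFIB and NFIX are known for promoting the switch from neurogenesis to gliogenesis, and in the retina NFI factors are known for roles in late progenitors and in the generation of bipolar cells and Müller glia. H3K27ac marks active promoters and enhancers. It is deposited by the acetyltransferases p300 and CBP, and broad domains of it often cover genes of cell identity.

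The 2 replicate H3K27ac libraries had been pooled by the authors and compared with 1 isotype control library. After removal of duplicates, 113543038 ChIP tags and 9210563 control tags remained, a ratio of 12.3. The result is 1 list, so a peak has no replicate error, and the values below are descriptions of that list without tests. A peak at a transcription start site (TSS), meaning at most 1000 bp from it, was present at 6 of 6 retinal progenitor markers and 3 of 3 ganglion cell markers. Such a peak was present at 49.8% of all 22367 protein-coding genes. None of the 2 lens, 2 pigment epithelium or 2 mesenchyme and vessel markers had one. Atoh7, among the ganglion cell markers, is also in the list of early progenitor factors below, and the marker sets are small.

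H3K27ac was unevenly spread over the family. A peak lay within 1000 bp of an annotated TSS of Nfib and Nfic, but not of Nfia or Nfix. The share of all 22367 protein-coding genes with such a peak was 49.8%, and 2 of 4 members is close to it. Nfia had no peak at all in its gene body or flanks. Nfib had 1 peak, Nfic had 6 and Nfix had 7, yet none of the 7 in the Nfix window lay in the Nfix gene.

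The annotated TSSs of the family formed 17 groups, with TSSs of a gene placed in 1 group when neighbours were no more than 500 bp apart. There were 4 groups for Nfia, 3 for Nfib, 4 for Nfic and 6 for Nfix. Sequence was called CpG-rich when the 1 kb around the TSS had a GC content of at least 55% and a ratio of observed to expected CpG of at least 0.65. Each gene had exactly 1 CpG-rich TSS group, the kind of promoter usually used by widely expressed and developmental genes. A peak lay over the groups of Nfib and Nfic and none over those of Nfia and Nfix. The promoters of Nfia and Nfic are printed as an example without a peak and one with a peak. Each sequence runs from 250 bases upstream of the TSS to 50 bases from it, on the gene's strand of the mm9 genome (NCBIM37), with CpG dinucleotides in capitals.
Nfia, chr4:97444067-97444366, + strand, no peak: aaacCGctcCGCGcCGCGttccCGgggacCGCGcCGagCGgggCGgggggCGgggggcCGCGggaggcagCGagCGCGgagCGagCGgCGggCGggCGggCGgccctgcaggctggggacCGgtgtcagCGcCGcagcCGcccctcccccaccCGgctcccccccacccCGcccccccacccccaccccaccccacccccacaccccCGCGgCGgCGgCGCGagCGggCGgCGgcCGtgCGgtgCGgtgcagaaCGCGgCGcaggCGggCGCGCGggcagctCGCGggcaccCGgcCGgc
Nfic, chr10:80893701-80894000, - strand, peak: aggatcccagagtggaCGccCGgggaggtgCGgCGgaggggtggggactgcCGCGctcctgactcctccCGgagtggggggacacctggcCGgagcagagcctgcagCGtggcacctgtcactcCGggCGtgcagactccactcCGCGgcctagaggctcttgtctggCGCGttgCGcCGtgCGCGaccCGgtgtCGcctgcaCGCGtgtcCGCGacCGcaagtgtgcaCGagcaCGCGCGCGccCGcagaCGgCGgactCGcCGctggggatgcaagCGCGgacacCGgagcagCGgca

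Both printed promoters were dense in CpG, with 52 CpGs in the 300 bases of Nfia and 40 in those of Nfic. The promoter without a peak therefore had more CpGs here than the one with a peak. Over the 1 kb around each TSS, GC content was 68.6% for Nfia, 60.3% for Nfib, 72.5% for Nfic and 74.9% for Nfix. The CpG ratio was 0.935 for Nfia, 0.913 for Nfib, 0.81 for Nfic and 1.12 for Nfix. Of all 9146 CpG-rich TSS groups of protein-coding genes, 87.4% had a peak within 1000 bp, against 16.2% of the 33251 other groups. In the family 2 of the 4 CpG-rich groups had a peak and 0 of the 13 others did. Of the 614 other TSS groups with at least the GC content and the CpG ratio of the Nfia promoter, 93.6% had a peak. Only 4 others were at least as rich as the Nfix promoter on both measures, and all 4 had a peak. Nfia and Nfix thus belonged to the minority of CpG-rich promoters without a peak.

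**Figure D1:**
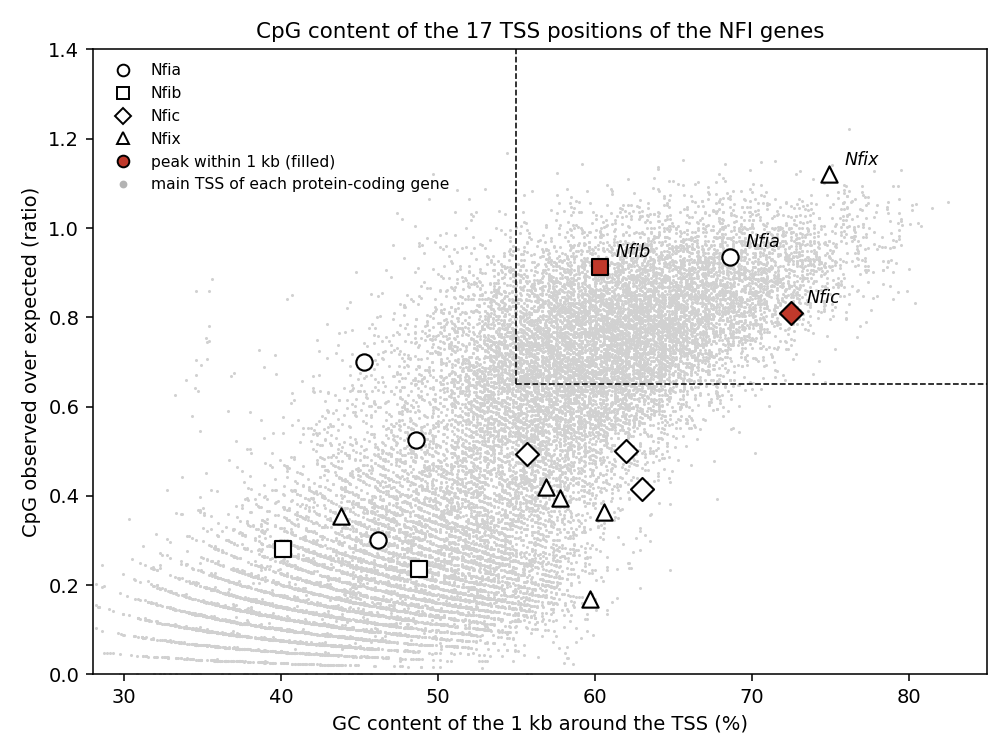
GC content in percent (x axis) against the ratio of observed to expected CpG (y axis) in the 1 kb around the 17 TSS groups of the NFI genes, with symbols by gene and filled where a peak lay within 1 kb. Gray points are the main TSSs of all protein-coding genes, and dashed lines mark the CpG-rich range, which holds 4 NFI groups, those of Nfib and Nfic filled and those of Nfia (68.6%, 0.935) and Nfix (74.9%, 1.12) open.

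Nfia (ENSMUSG00000028565.11, chr4:97439425-97868605, + strand) encodes a factor best known for its role in the onset of gliogenesis in the spinal cord. Its gene body spanned 429 kb and its extended window 529 kb, and 0 peaks overlapped the window. The CpG-rich group, used by 9 of its 12 annotated transcripts, lay 193 kb from the nearest peak. The other 3 groups, with 1 transcript each, lay 188 to 326 kb from a peak. The whole gene sat in a stretch of 737 kb between neighbouring peaks, which ranked 749 of 13442 such stretches by length (top 5.57%), where the median stretch was 59.2 kb. The nearest peaks began 188 kb before the gene and 120 kb after it. The window held no undetermined bases in the assembly.

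Nfia was also compared with genes of similar extent. Its window ranked 279 of 22367 by length, and of the 278 genes with a longer window 65 (23.4%) also had no peak, while 64.4% of them had a peak at a TSS. Over all protein-coding genes, 72.1% had a peak in the extended window, 50.6% had one in the gene body, and the median was 1 peak in a window of 115 kb. The rank correlation of window length with the number of peaks was 0.169 across these genes, which overlap and share peaks with their neighbours.

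**Figure D2:**
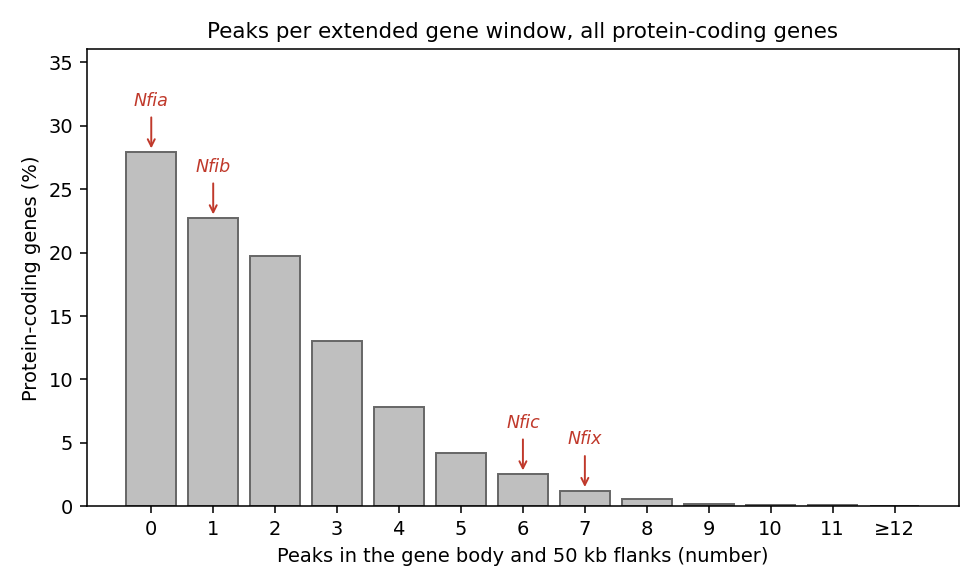
Share of the 22367 protein-coding genes in percent (y axis) by the number of peaks in the gene body and 50 kb flanks (x axis), with the 4 NFI genes marked by arrows. Nfia lies in the group of 27.9% of genes with 0 peaks and Nfib in the 22.7% with 1, while Nfic (6 peaks, 2.53% of genes) and Nfix (7 peaks, 1.22%) lie in the right tail.

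Nfib (ENSMUSG00000008575.10, chr4:81936077-82351654, - strand) encodes a paralogue with roles in lung maturation and in glial and callosal development. It carried the longest H3K27ac peak of the family's own genes. The peak at chr4:82150143-82153167 was 3025 bp long, had a mean pileup of 14.93 and a fold enrichment of 4.89 over the local control background, and had a -log10 q value of 5.66. The pileup is the mean number of overlapping fragments, with the deeper ChIP library scaled to the control. A TSS of another annotated gene, Gm11266, also lay within 1000 bp of this peak. Unscaled, the peak rested on about 1779 ChIP tags, a counting error of 2.37% for the ChIP library alone. The smaller control library is not included in that error.

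The Nfib peak stood out by its length and not by its height. It ranked 344 of 13463 by length, in the top 2.56%, but 6858 by pileup and 4907 by fold enrichment. The median peak was 1015 bp long with a pileup of 15.06, so the Nfib peak was longer than most and close to the median in height. It began upstream of the main TSS, which 5 of the 15 Nfib transcripts use, and extended 1069 bp past it into the gene. All 13 transcripts of the CpG-rich group start within it. It covered 1049 bp of Nfib exons, of which 1013 bp were annotated as untranslated and 30 bp as coding.

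Beyond this promoter, Nfib was without peaks. The 416 kb gene body and its flanks held no other peak, and peaks covered 0.587% of the 516 kb window. The most upstream TSS of Nfib, used by 1 transcript, lay 153 kb from the nearest peak, and a TSS inside the gene lay 4.92 kb from the promoter peak. The stretches without a peak on either side were 1060 kb and 352 kb long and ranked 463 and 1616 of 13442. Of the 299 genes with a longer window, 65.2% had a TSS peak. Nfia and Nfib thus resembled each other in size and differed at the CpG-rich promoter itself. Neither had a gene-body peak away from a TSS, which is the common state. Only 4.2% of protein-coding genes had such a peak, and Nfix had none either.

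Nfic (ENSMUSG00000055053.10, chr10:80858931-80893750, - strand), known for its role in tooth root formation, was the shortest member at 34.8 kb. It was also the only member with peaks inside the gene away from a TSS. Its 3 gene-body peaks lay at the 5′ end, in an intron and towards the 3′ end, and covered 3121 bp. The extended window of 135 kb held 6 peaks, or 4.45 per 100 kb against a median of 0.967 over protein-coding genes. This number of peaks exceeded that of 95.2% of genes, but 3 of the 6 lay in the flanks at TSSs of neighbouring genes.

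The promoter peak of Nfic, at chr10:80892629-80893795, had the highest pileup of the peaks inside NFI genes. It was 1167 bp long, with a pileup of 19.72 and a fold enrichment of 4.71, and rested on about 906 tags. In contrast to the Nfib peak, it was ordinary in length (rank 5403) and nearer the top in pileup (rank 2374, top 17.6%), but not in fold enrichment (rank 5606, top 41.6%). It covered the most upstream, CpG-rich TSS, which 1 of the 8 annotated Nfic transcripts uses. The group used by 5 transcripts starts downstream, 2.7 kb from the end of the peak. That group had 62.0% GC and a CpG ratio of 0.501, below the CpG-rich range, and no peak within 1000 bp. The call of a TSS peak for Nfic therefore rested on a single annotated transcript.

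The intronic Nfic peak, at chr10:80879719-80880120, was 402 bp long with a pileup of 13.83 and a fold enrichment of 3.88. It overlapped no exon and was centred 9999 bp downstream of the main TSS. The peak towards the 3′ end, at chr10:80864728-80866324, was 1597 bp long with a pileup of 14.81 and a fold enrichment of 4.54. It was centred 24.4 kb downstream of the main TSS, covered 77 bp of exon, and ended 1429 bp short of a TSS of a shorter Nfic transcript. Both exceeded the median pileup of 9.9 of the 2855 peaks away from any TSS, and the 3′ peak also exceeded their median length of 801 bp. Peaks in the gene body and over 1000 bp from every TSS were uncommon, being present in 4.2% of protein-coding genes.

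These Nfic peaks also differed in base composition from the promoter peaks. The 3′ peak had 61.7% GC but a CpG ratio of 0.211, lower than in all but 5.47% of peaks, and the intronic peak had 70.1% GC and a ratio of 0.391. The Nfic promoter peak had 74.0% GC, more than 97.2% of peaks, and a ratio of 0.91. The Nfib promoter peak had 63.3% GC and a ratio of 0.819, against medians of 60.2% and 0.716 over all peaks.

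Nfix (ENSMUSG00000001911.9, chr8:87223775-87324243, - strand), known for its roles in brain and muscle development, had 7 peaks in its 200 kb window and none in its gene body of 100 kb. More peaks lay in this window than in those of 97.7% of protein-coding genes. All 7 belonged to the flanks, where 9 other protein-coding genes are annotated. The stretch without a peak that contained Nfix was 142 kb long, and its upstream edge lay 31.6 kb from the 5′ end of the gene. The CpG-rich group at that 5′ end, used by 3 of 9 transcripts, was thus 31.6 kb from a peak. The other 5 groups lay 17.8 to 58.5 kb from one.

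**Figure D3:**
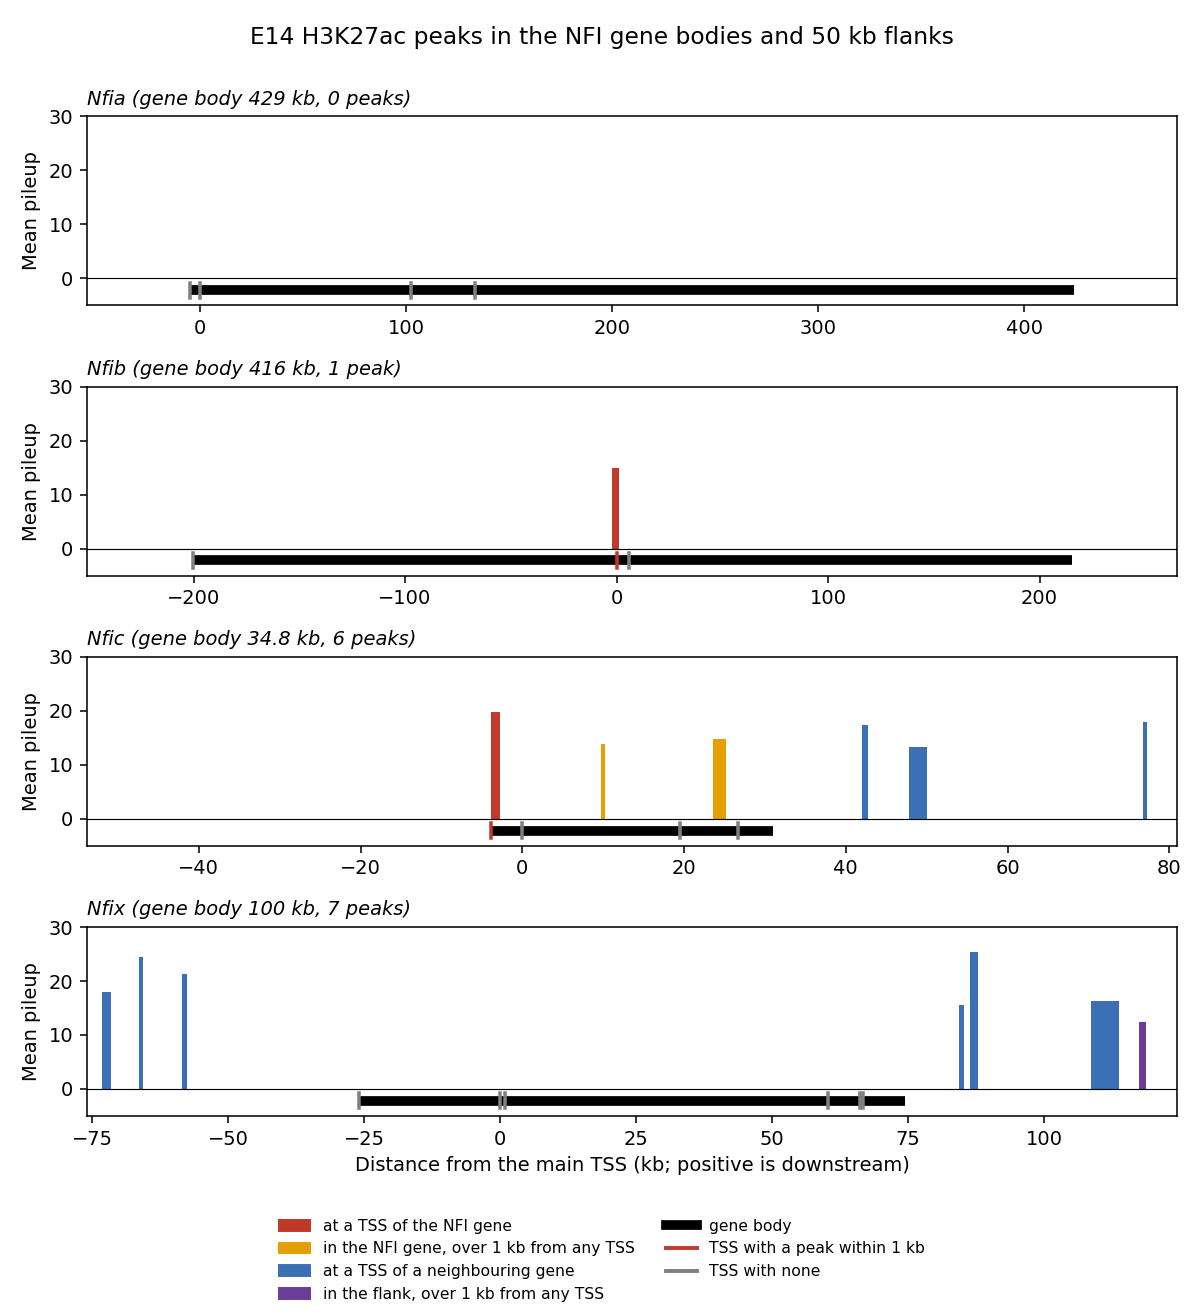
Peaks at the 4 NFI genes by distance from the main TSS in kb (x axis, positive downstream) with bar height giving the mean pileup (y axis) and colour the place of the peak. Black bars are gene bodies and vertical ticks TSS groups; very short peaks are drawn at a minimum width. No bar stands over Nfia, 1 over the Nfib promoter (14.93), 3 in Nfic, and all 7 of the Nfix window stand outside the gene.

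Of the 14 peaks, 2 lay at a TSS of an NFI gene, and 9 lay within 1000 bp of the TSS of a neighbouring gene and not of an NFI gene. Peaks near a TSS were also the majority in the whole list, with 10608 of 13463 within 1000 bp of one. The lengths of the 9 ran from 419 to 5096 bp and their pileups from 13.38 to 25.37. In the Nfic window 3 peaks lay at Hmg20b, Fzr1 and Dohh, genes of a chromatin protein, an activator of the anaphase-promoting complex and a hydroxylase of the translation factor eIF5A. Their pileups were 17.85, 13.38 and 17.41. In the Nfix window 6 peaks lay at such TSSs. The longest was 5096 bp at Ier2, an immediate early gene, and ranked 50 of 13463 by length. The peak with the highest pileup, 25.37, lay at Nacc1, a BTB-domain transcriptional regulator, with a TSS of the tRNA methyltransferase gene Trmt1 also within reach, and ranked 207. A separate peak of 592 bp lay at Trmt1 with a pileup of 15.56.

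Upstream of Nfix, the peak at Dand5 and Gadd45gip1, genes of a secreted Nodal antagonist and a mitochondrial ribosomal protein, had a pileup of 21.31. The peak at the chaperone gene Calr had a pileup of 18.0. The remaining peak of the Nfix window, 1319 bp long with a pileup of 12.36, lay 5872 bp from the TSS of Ier2 and 118 kb downstream of the main TSS of Nfix. In the windows of Nfic and Nfix, 9 of 13 peaks therefore lay at promoters of other genes, in a list where most peaks lie near a TSS. Which gene a distal peak acts on was not measured.

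**Figure D4:**
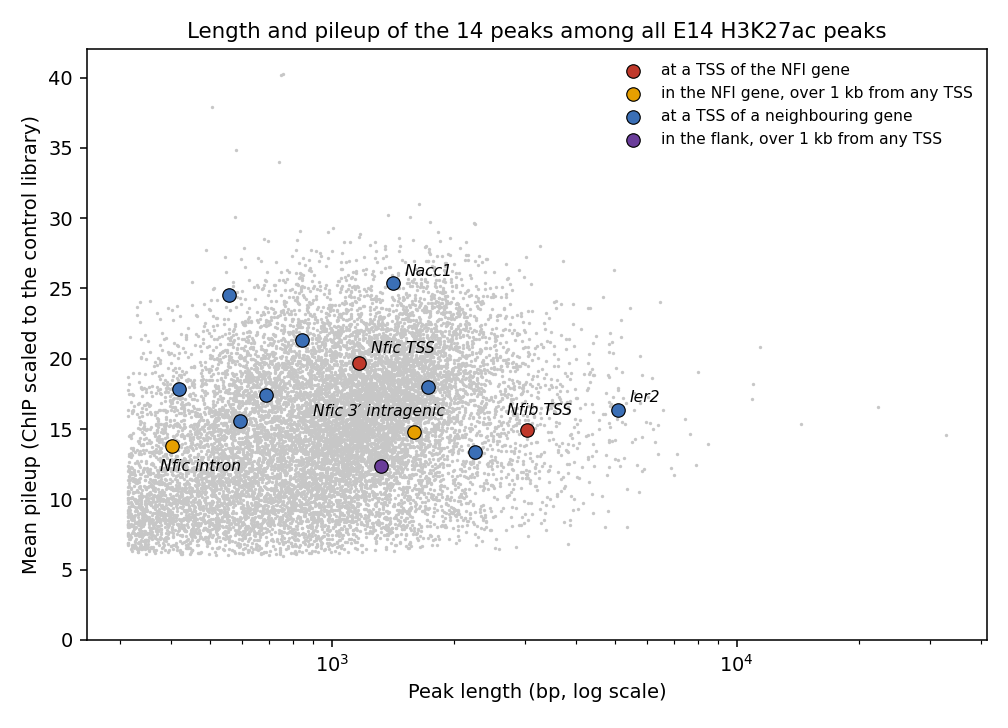
Length in bp on a log scale (x axis) against mean pileup (y axis) of all 13463 E14 H3K27ac peaks (gray) and of the 14 peaks in the NFI windows, coloured by place. The Nfib promoter peak (3025 bp, 14.93) lies to the right at a middle height, the Nfic promoter peak (1167 bp, 19.72) lies higher, and the peaks of the neighbours Ier2 (5096 bp) and Nacc1 (25.37) are the longest and the highest of the 14.

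The peaks were searched on both strands for the NFI palindrome TTGGC-N5-GCCAA and for the single site TTGGCA, which the palindrome contains when the spacer base next to an arm reads A on that arm's strand. The palindrome was in none of the 14 peaks. It was rare everywhere, in the central 1 kb of 11 of 13463 peaks (0.0817%), so its absence from 14 peaks carries little information. The single site was found in 1 of the 4 peaks inside NFI genes, that of the Nfib promoter, which held 2 copies outside its central 1 kb. These copies are shown, with the site in capitals, because they were the only such sites in peaks inside NFI genes.
Nfib downstream copy, chr4:82150528-82150533, - strand: cctaaccTTGGCAcaccctg
Nfib upstream copy, chr4:82153110-82153115, - strand: ggtagacTTGGCAagctcgc

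The single site is common, being present in the central 1 kb of 30.6% of all peaks and in 13.1% of promoters of 300 bases. On the like measure, no peak inside an NFI gene held it in its central 1 kb. The homeodomain-type core TAATTA, which LHX2 can bind, was also searched. It occurred once in the Nfib peak and in none of the 3 Nfic peaks, against the central 1 kb of 9.56% of all peaks and 4.77% of promoters. Its copy, with the core in capitals, lies upstream of the CpG-rich TSS group of Nfib, outside the 250 bases before its main TSS.
Nfib TAATTA, chr4:82151713-82151718, + strand: tattattTAATTAcacaatc

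A match of these letters is not a measured binding site.

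Genes that act in the same processes were read from the same list, beside the 49.8% of all protein-coding genes with a TSS peak. Of 12 gliogenic and late progenitor factors 11 had a TSS peak, with a median length of 2806 bp. The longest was at the eye-field factor Rax (6096 bp) and the highest at Lhx2 (pileup 19.24). Sox8, a glial SOX factor, had none. The Nfib peak was shorter than 5 of these 11. Sox9, a factor that acts upstream of Nfia in spinal cord gliogenesis, had a TSS peak of 628 bp with a pileup of 15.5, whereas Nfia had none.

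Of 12 early progenitor factors 11 also had a TSS peak, with a median of 4842 bp, and 7 were longer than that of Nfib. The longest was at the eye-field regulator Pax6 (32865 bp, the longest of the whole list) and the highest at Six6 (pileup 20.15). Ikzf1, which confers early temporal identity, had none. Nfia and Nfix, like Sox8 and Ikzf1, had no TSS peak, and the length at Nfib was within the range of both lists.

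Of 12 glial genes, several of them known NFI targets in the brain, 5 had a TSS peak, with a median length of 699 bp and 0 longer than that of Nfib. The longest was at the intermediate filament gene Vim (2370 bp) and the highest at Glul (pileup 21.26), which encodes glutamine synthetase. Fabp7, Gfap, Mmd2, Rlbp1, Aqp4, Aldh1l1 and S100b had none. Among the 5 with a TSS peak, Slc1a3 and Apcdd1 had short peaks of 653 and 403 bp with pileups of 10.27 and 10.89. Known NFI targets were not counted apart from the other glial genes. Vim and Glul are also expressed outside glia.

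**Figure D5:**
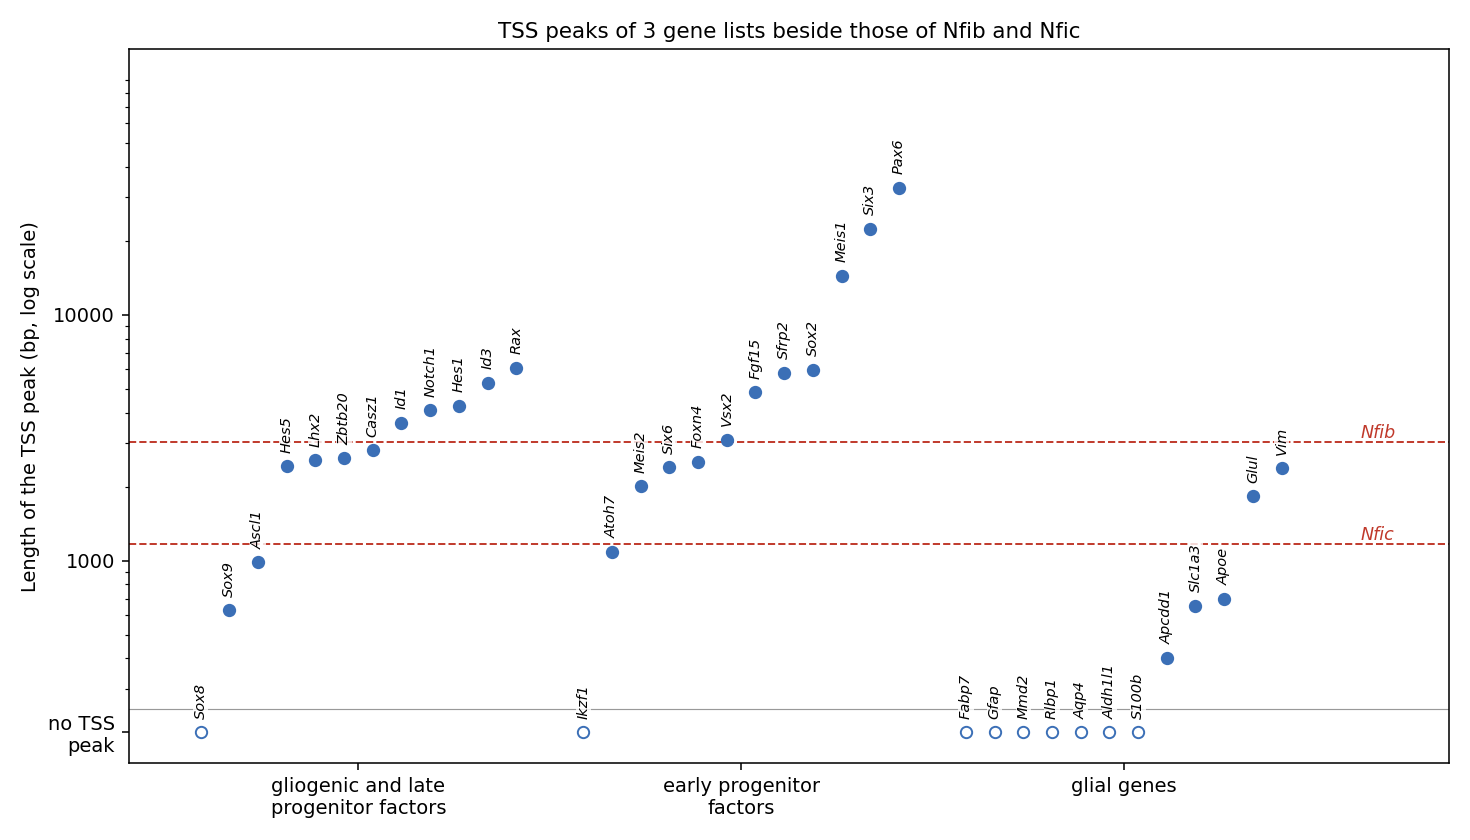
Length of the TSS peak in bp on a log scale (y axis) for each gene of the 3 lists (x axis), with open circles for genes without a TSS peak and dashed lines at the lengths for Nfib (3025 bp) and Nfic (1167 bp). Among the 12 genes of a list, 1 gliogenic, 1 early progenitor and 7 glial genes have no TSS peak, and no glial gene lies above the Nfib line.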

How the data were processed

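H3K27ac ChIP-Seq of E14 retina (2 replicate libraries, 1 isotype control) was aligned by the authors to mm9 with Bowtie2, and uniquely mappable reads were kept. The authors pooled the replicates for peak calling. Per the file header, MACS version 2.1.0.20140616 ran in broad mode with a cutoff of 0.1, and the methods limit tags to 1 per position. The deposited pileup is a signal, the mean fragment coverage of a region after the ChIP library was scaled to the control. The deposited fold enrichment is the ratio of ChIP to local control background, and the deposited -log10 p and -log10 q values come from MACS2, all averaged over the region.

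From these values, overlaps of at least 1 bp with GENCODE vM1 genes extended by 50 kb, ranks and base composition on the mm9 genome were computed with Python 3.11.15, numpy 2.4.6 and pandas 2.3.3, and plots with matplotlib 3.10.9. The main TSS of a gene is the position used by most of its protein-coding transcripts. Overlaps were tested on simulated data, with 0 errors in 1000 windows. Alternatives were stricter peaks (fold enrichment of at least 4, q of at most 0.001), other windows and TSS definitions, joined peaks and other ranks.

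The members and lists were chosen with earlier results of these data known. All 4 members are given in full. In the lists the genes with the longest TSS peak and the highest pileup and those without a TSS peak are named, and Sox9, Slc1a3 and Apcdd1 were added once their values were known. Neighbouring genes are named where a peak lies within 1000 bp of their TSS. The CpG-rich range and TAATTA were also chosen after the peaks were seen. Other samples of the series were not analysed here, and the values of 1 peak and the sequences of 2 promoters are not reported here.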

Additional observations from a re-analysis of the deposited data

How the results depend on the processing

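The number of peaks in the 4 windows, 14 in the text, was 4 with the gene body alone and 5 with flanks of 10 kb, and the covered length, 21100 bp in the text, was then 6146 and 6195 bp. These differences follow from the exclusion of flanks, where 10 of the 14 peaks lie. The number of gene-body peaks with an NFI motif was 0 for the palindrome and 1 for TTGGCA. The other 18 of 23 alternatives left such totals within 1.5 times. Nfib and Nfic remained the members with a TSS peak under all 5 alternatives, and Nfia had 0 peaks and Nfib 1 under all 7 alternatives of window and peak set. The Nfix window, with 7 peaks in the text, had 0 in the gene body alone, 1 with flanks of 10 kb and 12 with flanks of 100 kb. The Nfic window, with 6, had 3 in the gene body alone and 3 with flanks of 10 kb, and its covered length fell from 6524 to 3871 bp with the stricter peaks. The intronic Nfic peak and the Fzr1 peak did not reach the stricter limits. The Nfib peak ranked 6858 by pileup, 344 by length and 673 by length times pileup, and the Nfic promoter peak ranked 2374, 5403 and 3712, with 5606 by fold enrichment.

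No paired analysis was possible because the replicates were pooled in 1 list. Without replicates, control reads by region or a signal outside peaks, a region without a peak is known only to lie below the calling limit. The control library, with 9210563 tags, limits the precision of fold enrichment.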
